A study of Homo sapiens with 8 samples.

Results

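The 10 genes described here are negative feedback regulators and transcriptional targets of the RAS to ERK branch of MAPK signaling: the phosphatases DUSP4, DUSP5 and DUSP6, the Sprouty genes SPRY1, SPRY2 and SPRY4, the Sprouty-related genes SPRED1 and SPRED2, the transcription factor ETV5, and PHLDA1. They were chosen by name, with earlier results of these data known, and all 10 are present among the 26475 genes of the count table and among the 12401 with enough counts to be tested. RNA was sequenced from MOLM-13, an acute myeloid leukemia cell line with an MLL-AF9 (KMT2A) fusion, of wild-type genotype in the labels. The cells received DMSO (the vehicle), the Menin inhibitor VTP50469, the KAT6A inhibitor WM1119 (spelled WM119 in the labels), or VTP50469 and WM1119 together, and each of the 4 groups has 2 of the 8 libraries. Neither the labels nor the methods give doses or exposure times for these libraries, a single cell line was used, and it is not stated whether a group's libraries are separate cultures, so p-values measure the spread between these libraries, which may be technical.

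Growth factor receptors activate RAS, and RAS in turn activates the kinases RAF, MEK and ERK. Active ERK raises transcription of genes that dampen the same route: dual-specificity phosphatases remove the activating phosphates from ERK, Sprouty proteins act between the receptor and RAF, and SPRED proteins bring neurofibromin to RAS. Transcript levels of these genes are widely used as a readout of ERK output in leukemia and solid tumor cells, although several of them also answer to other signals.

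The libraries held between 18092906 and 23634468 counts, and a value of 3 counts corresponds to between 0.127 and 0.186 CPM (counts normalized to library size). Replicate 2 of the combination stood apart, with 12972 genes detected against 14142 to 14544 in the other 7 libraries and a TMM scaling factor of 0.872. Its difference from DMSO fell with transcript length (Spearman's rho of -0.558 across genes, which are not independent replicates), as did that of replicate 1 of WM1119 (-0.523). The length trend was weaker in replicate 1 of the combination (-0.143), replicate 2 of VTP50469 (-0.294) and the DMSO libraries set against their own mean (0.215 and -0.215). The summed CPM of 12 myeloid leukemia markers was 2018 to 2115 in DMSO, 4173 to 4908 with VTP50469, 3102 to 3288 with WM1119 and 9841 to 13995 with the combination. Such a sum is set mostly by abundant genes and does not give the direction of each marker. FLT3, a member of this list, fell from 253 and 232 CPM in DMSO to 144 and 82.2 with the combination, and 1 marker was at 0 in every library. Of 6 T and NK cell markers, 5 were in the count table, and CD3E and CD3G were at 0 in every library. The summed CPM was at most 35.0 outside the combination and 33.2 to 84.3 within it. Most of this sum was NKG7, at 20.6 and 19.2 CPM in DMSO and 30.3 and 82.03 with the combination. CD3D was lower with the combination (2.16 and 1.36 CPM) than in DMSO (4.49 and 2.84), and CD2 was at most 0.867 CPM in any library. B cell markers summed to at most 3.16 CPM, erythroid markers to at most 0.0938 and epithelial and stromal markers to at most 0.809, and the part of these changes in any result below was not tested. In bulk RNA, fewer cells expressing a gene and less RNA per cell cannot be told apart.

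Promoter windows of 7 of the 10 genes were taken from RefSeq (GRCh38.p14), each from 250 bases before to 50 bases after an annotated transcription start. Those of DUSP6 and SPRY4 are shown because both genes rose with the combination. SPRY1 is included because it was the member furthest apart between the inhibitors given alone, and the second of its 2 windows is shown because only that one holds a motif. Both SPRED2 windows hold a motif, and the upstream one is shown. Each is written 5′ to 3′ on the strand of the gene, in lower case, with any searched motif in capitals.
DUSP6 (chr12:89352452-89352751, minus strand): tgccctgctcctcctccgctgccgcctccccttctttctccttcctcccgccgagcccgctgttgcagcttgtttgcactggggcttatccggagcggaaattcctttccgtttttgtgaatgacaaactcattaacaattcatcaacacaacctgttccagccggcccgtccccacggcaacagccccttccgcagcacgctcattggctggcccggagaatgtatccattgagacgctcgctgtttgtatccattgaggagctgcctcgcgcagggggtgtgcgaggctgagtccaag
SPRY4 (chr5:142324198-142324497, minus strand): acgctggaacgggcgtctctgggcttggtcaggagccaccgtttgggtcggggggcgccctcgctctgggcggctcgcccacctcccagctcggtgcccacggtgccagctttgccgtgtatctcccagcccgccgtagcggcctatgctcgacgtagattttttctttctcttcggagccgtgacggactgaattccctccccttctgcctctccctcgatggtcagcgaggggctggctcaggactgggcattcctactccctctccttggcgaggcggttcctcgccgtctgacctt
SPRY1 (chr4:123398136-123398435, plus strand): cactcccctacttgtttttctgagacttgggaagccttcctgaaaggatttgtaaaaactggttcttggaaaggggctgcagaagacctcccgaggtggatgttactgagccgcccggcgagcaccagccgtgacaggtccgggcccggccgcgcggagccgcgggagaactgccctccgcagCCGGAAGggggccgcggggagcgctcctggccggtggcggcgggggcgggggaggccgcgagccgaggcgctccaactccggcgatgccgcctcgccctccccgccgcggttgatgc
SPRED2 (chr2:65432550-65432849, minus strand): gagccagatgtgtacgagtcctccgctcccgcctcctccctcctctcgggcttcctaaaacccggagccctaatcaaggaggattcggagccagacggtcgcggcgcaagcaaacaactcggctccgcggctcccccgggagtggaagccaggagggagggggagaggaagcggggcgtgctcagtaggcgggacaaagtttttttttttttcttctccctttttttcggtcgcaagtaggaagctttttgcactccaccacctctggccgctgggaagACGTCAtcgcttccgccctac
The motifs, searched on both strands, were those of AP-1 (TGAGTCA), of the cyclic AMP response element core (ACGTCA) and of an ETS core (CCGGAAG), none of which contains another. The SPRY1 window above holds the ETS core 67 bases before the start, and the SPRED2 window above holds the ACGTCA core 29 bases after it. Another SPRED2 window, at chr2:65366729-65367028, holds the AP-1 motif 6 bases before its start. The windows of DUSP6, SPRY4, SPRY2, SPRED1 and PHLDA1 hold none of these letters. Each motif was thus present in 1 of the 11 windows searched for these genes, beside 4.95% (AP-1), 7.98% (ACGTCA) and 10.3% (CCGGAAG) of the 35116 windows in the reference. Windows on 1 chromosome were left out for the 10 genes, whereas no chromosome was left out of these reference shares. These matches describe the sequence and are not evidence of binding.

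In the DMSO libraries the 10 genes covered a wide range of levels. Per kilobase of transcript, ETV5 was the most abundant at 12.8 ± 0.46 CPM per kb (SD, n = 2), followed by SPRED2 at 8.66 ± 0.26 and SPRY2 at 7.04 ± 0.12. SPRED1 (2.81 ± 0.24), DUSP6 (2.38 ± 0.32), DUSP4 (2.10 ± 0.086), DUSP5 (1.64 ± 0.18) and PHLDA1 (1.56 ± 0.64) were intermediate. SPRY1 stood at 0.848 ± 0.14 and SPRY4 at 0.190 ± 0.0041 CPM per kb. In this order DUSP6 overlapped DUSP4, and DUSP5 overlapped PHLDA1, between the 2 DMSO libraries, while the other neighbors did not overlap. With the combination DUSP6 stood at 4.52 ± 0.74 CPM per kb and DUSP4 at 0.424 ± 0.22.

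The combination was compared with DMSO to ask which of these feedback genes respond when Menin and KAT6A are inhibited together. DUSP6, an ERK-specific phosphatase of the cytoplasm, and SPRY4 rose, and DUSP4, an inducible nuclear phosphatase of ERK, JNK and p38, fell. These were 3 of the 10 genes (2 higher, 1 lower) at an adjusted p under 0.05 in edgeR's quasi-likelihood test, beside 9.29% of all tested genes (5.85% higher, 3.44% lower). DESeq2 passed these and SPRED1, lower, or 4 of 10, beside 17.7% of genes. The median log2 change of the 10 genes was -0.31, beside 0.01 for all tested genes, and 4 of them lay above 0 and 6 below. Leaving out 1 library at a time, the genes that passed in edgeR changed from fit to fit, and no gene passed in every fit. The number of all tested genes that passed changed widely too, so passing in such a fit is not support for a gene. The log2 changes ran from -2.98 to -1.84 for DUSP4 and from 0.73 to 1.10 for DUSP6. They ran from 1.38 to 1.90 for SPRY4 and from -1.34 to -0.69 for SPRED1.

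**Figure D1:**
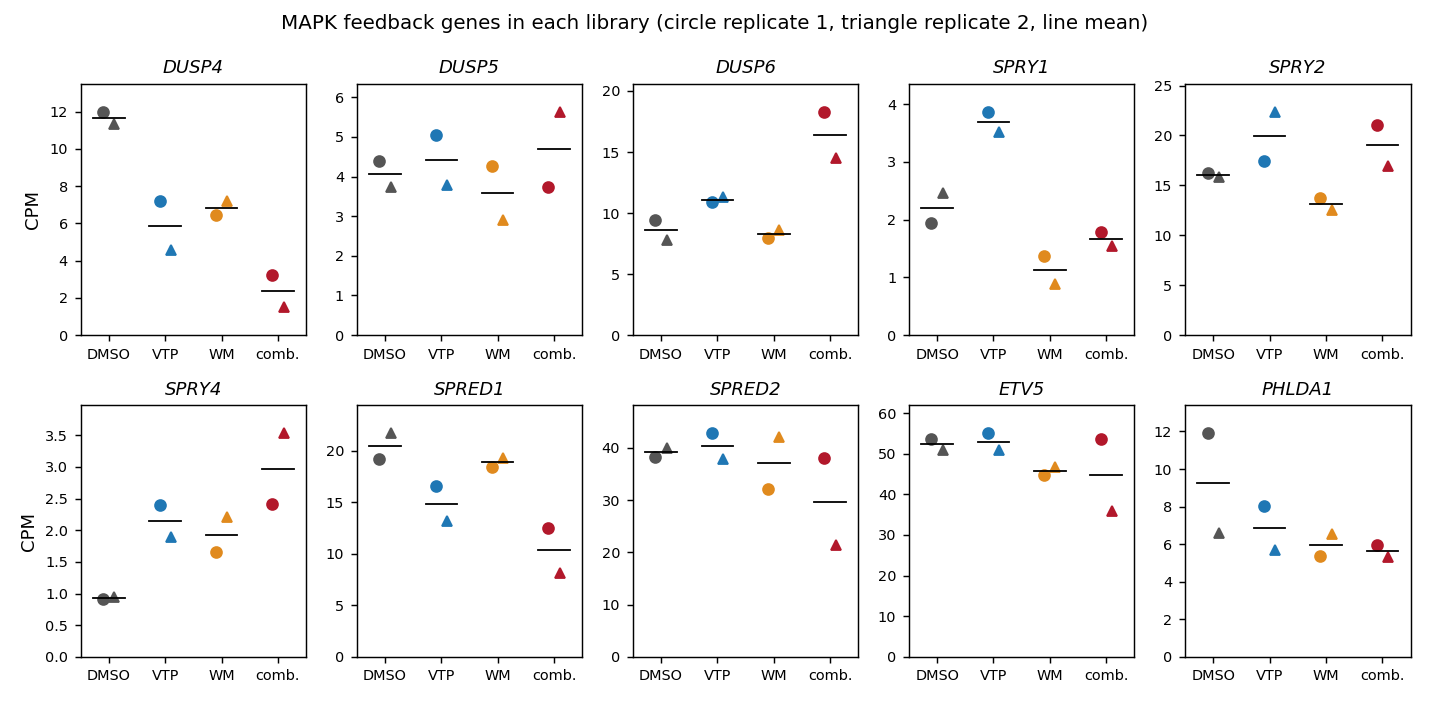
Normalized level (CPM, linear axis from 0) of each of the 10 genes in DMSO, VTP50469 (VTP), WM1119 (WM) and combination (comb.) libraries, with circles for replicate 1, triangles for replicate 2 and lines for group means. DUSP4 runs from 12.01 CPM in DMSO down to 1.49 in the combination, DUSP6 and SPRY4 are highest in the combination, and SPRY1 is highest with VTP50469.

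Among the phosphatases, DUSP4 stood at 12.01 and 11.3 CPM in the DMSO libraries, 7.21 and 4.57 with VTP50469, 6.47 and 7.22 with WM1119, and 3.22 and 1.49 with the combination. Every treated library lay below both DMSO libraries, and both combination libraries lay below every other library. The share of all tested genes whose libraries separate in this way is not given here. Such positions, here and below, describe 2 libraries per group and are not evidence of a change. The combination differed from DMSO by a log2 change of -2.28 ± 0.39 (SE), or 4.86-fold lower (edgeR adjusted p = 0.0182; DESeq2 adjusted p = 2.12e-06). The fall was -1.84 without replicate 2 of the combination and -2.98 without replicate 1. The call was lost on leaving out either DMSO or either WM1119 library.

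With each inhibitor alone, DUSP4 gave a log2 change of -0.99 ± 0.36 for VTP50469 (edgeR adjusted p = 0.619) and -0.77 ± 0.36 for WM1119 (adjusted p = 1.00), neither past the threshold. The VTP50469 value passed it in an edgeR fit of the 2 groups alone (adjusted p = 0.0130). It was -0.98 when replicate 1 of WM1119 and replicate 2 of the combination were both left out, an alternative chosen after seeing the data. The combination lay below VTP50469 by -1.29 ± 0.38 (edgeR adjusted p = 0.181; DESeq2 adjusted p = 0.0465) and below WM1119 by -1.51 ± 0.38 (edgeR adjusted p = 0.127; DESeq2 adjusted p = 0.0109). Departure from additivity on the log2 scale was -0.52 ± 0.52 (edgeR adjusted p = 0.938).

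DUSP6 stood at 9.47 and 7.82 CPM in DMSO, 10.9 and 11.3 with VTP50469, 7.92 and 8.63 with WM1119, and 18.3 and 14.5 with the combination. The combination libraries lay above all 6 others, while the WM1119 libraries fell within the range of DMSO. The combination gave a log2 change of 0.93 ± 0.19 from DMSO, or 1.90-fold higher (edgeR adjusted p = 0.0324; DESeq2 adjusted p = 0.00265). It was 0.73 without replicate 1 of the combination and 1.10 without replicate 2, whereas leaving out any library of another group lost the call.

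Against WM1119, DUSP6 was 0.99 ± 0.19 higher with the combination on the log2 scale (edgeR adjusted p = 0.0694; DESeq2 adjusted p = 0.00223), and against VTP50469 0.57 ± 0.19 higher (edgeR adjusted p = 0.215; DESeq2 adjusted p = 0.165). VTP50469 alone gave 0.36 ± 0.19 and WM1119 alone -0.06 ± 0.19, both with an edgeR adjusted p of at least 0.942. The interaction was 0.63 ± 0.27 (unadjusted p = 0.0528 in edgeR's quasi-likelihood test; adjusted p = 0.938). DUSP4 and DUSP6 therefore changed in opposite directions in the same combination libraries.

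DUSP5, a nuclear ERK-specific phosphatase, stood at 4.38 and 3.75 CPM in DMSO, 5.05 and 3.78 with VTP50469, 4.26 and 2.91 with WM1119, and 3.73 and 5.64 with the combination. Its groups overlapped in every comparison, and the combination differed from DMSO by 0.20 ± 0.32 on the log2 scale (edgeR adjusted p = 0.681). The processed pseudogene DUSP5P1 has a row of its own with 8 to 64 counts per library, beside 62 to 103 for DUSP5. No source used here says how reads shared by this pair were assigned, so the DUSP5 values are uncertain to that extent.

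Of the Sprouty genes, SPRY4 was the least abundant, with 17 to 57 counts per library. It stood at 0.920 and 0.948 CPM in DMSO, 2.40 and 1.89 with VTP50469, 1.66 and 2.20 with WM1119, and 2.42 and 3.53 with the combination. All 6 treated libraries lay above both DMSO libraries. The combination gave a log2 change of 1.66 ± 0.36, or 3.15-fold higher (edgeR adjusted p = 0.0389; DESeq2 adjusted p = 0.00797). On leaving out 1 library the log2 change ran from 1.38 (without replicate 2 of the combination) to 1.90 (without replicate 1). The call was lost in most of these fits, including those without either DMSO library. The inhibitors alone gave 1.19 ± 0.36 (VTP50469, edgeR adjusted p = 0.444) and 1.04 ± 0.37 (WM1119, adjusted p = 0.885), neither past the threshold.

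SPRY1 stood at 1.95 and 2.47 CPM in DMSO, 3.87 and 3.51 with VTP50469, 1.36 and 0.891 with WM1119, and 1.78 and 1.55 with the combination. Both VTP50469 libraries lay above every other library, and both WM1119 libraries lay below every other library. In edgeR this gave 0.74 ± 0.32 for VTP50469 (adjusted p = 0.759), -0.96 ± 0.34 for WM1119 (adjusted p = 0.885) and -0.40 ± 0.33 for the combination (adjusted p = 0.414) on the log2 scale against DMSO, none past the threshold. The inhibitors were also compared directly, a comparison added after seeing the data. SPRY1 was 1.70 ± 0.34 higher with VTP50469 than with WM1119 on the log2 scale, or 3.26-fold (edgeR adjusted p = 0.223; DESeq2 adjusted p = 0.0151), beside 0.0323% of tested genes that passed in edgeR and 1.12% in DESeq2, and 2 of the 10 genes (SPRY1 and SPRY2, both higher) had an unadjusted p under 0.05 in edgeR, beside 5.39%. In edgeR the difference was 1.70 without replicate 1 of the combination and 1.71 without its replicate 2. These libraries are in neither group compared but enter the shared estimate of spread. Against VTP50469 alone, SPRY1 was -1.14 ± 0.33 with the combination (edgeR adjusted p = 0.174), and -1.26 without replicate 1 of the combination.

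SPRY2 stood at 16.3 and 15.9 CPM in DMSO, 17.4 and 22.4 with VTP50469, 13.7 and 12.5 with WM1119, and 21.1 and 17.0 with the combination. The WM1119 libraries were the lowest of the 8, and all log2 changes from DMSO were small: 0.31 ± 0.19 for VTP50469, -0.29 ± 0.19 for WM1119 and 0.24 ± 0.19 for the combination, with edgeR adjusted p of at least 0.384.

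**Figure D2:**
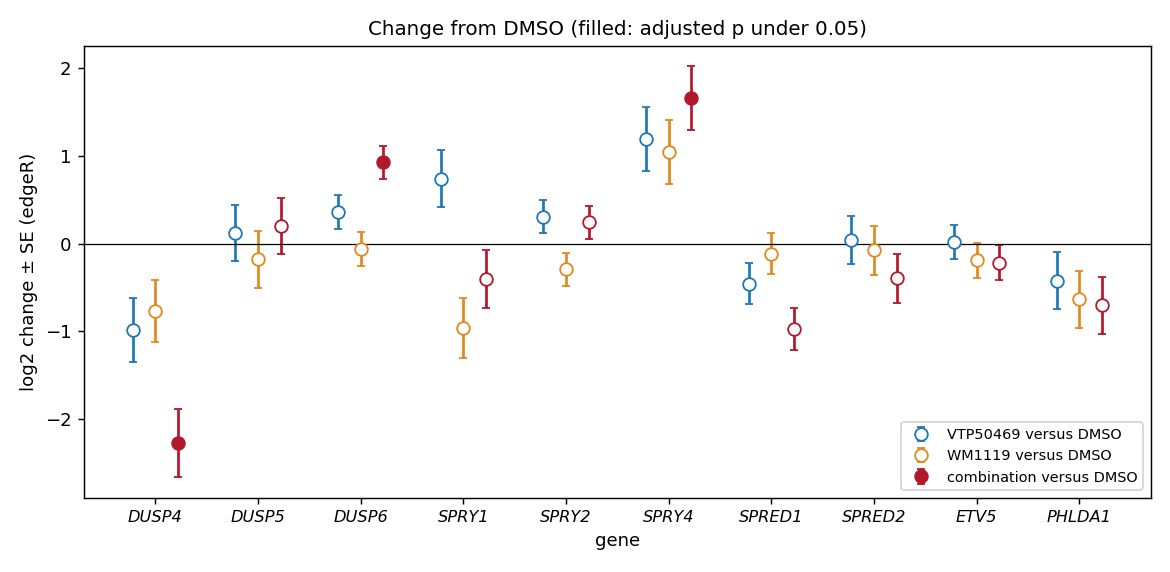
Log2 change from DMSO of each gene with VTP50469, WM1119 and the combination (points, edgeR) with its standard error (bars), filled where the adjusted p is under 0.05. Only 3 points are filled, all of the combination: DUSP4 at -2.28, DUSP6 at 0.93 and SPRY4 at 1.66.

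SPRED1, which binds neurofibromin, stood at 19.2 and 21.7 CPM in DMSO, 16.6 and 13.1 with VTP50469, 18.4 and 19.3 with WM1119, and 12.5 and 8.12 with the combination. The combination libraries were the lowest of the 8. The log2 change from DMSO was -0.98 ± 0.24, just outside the threshold in edgeR (adjusted p = 0.0502) and within it in DESeq2 (adjusted p = 0.00592). SPRED1 has the longest transcript of the 10 (7270 nt), and with an offset for transcript length and GC content its change was -0.48 (edgeR adjusted p = 0.0851). Without replicate 2 of the combination it was -0.69, and without replicate 1 it was -1.34. The same offset gave -2.02 for DUSP4 (adjusted p = 0.00315), 1.09 for DUSP6 (adjusted p = 0.00297) and 1.95 for SPRY4 (adjusted p = 0.0175).

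SPRED2 stood at 38.3 and 40.0 CPM in DMSO, 42.8 and 37.8 with VTP50469, 32.1 and 42.1 with WM1119, and 38.0 and 21.4 with the combination. ETV5, an ETS transcription factor of the PEA3 subfamily, stood at 53.6 and 51.0 CPM in DMSO, 55.0 and 50.8 with VTP50469, 44.8 and 46.7 with WM1119, and 53.7 and 36.0 with the combination. For both genes replicate 2 of the combination was the lowest of the 8 libraries, and replicate 1 lay close to the DMSO libraries. The combination gave -0.39 ± 0.28 for SPRED2 (edgeR adjusted p = 0.344) and -0.22 ± 0.20 for ETV5 (adjusted p = 0.454). Without replicate 2 these were -0.03 and 0.05, and without replicate 1 they were -0.89 and -0.55, so the direction of ETV5 and the size of both rest on 1 library. The annotation gives ETV5 an overlap of 164 exonic bases with DGKG on the same strand.

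PHLDA1, a pleckstrin homology-like domain gene that growth factors induce, stood at 11.9 and 6.59 CPM in DMSO, 8.04 and 5.71 with VTP50469, 5.36 and 6.52 with WM1119, and 5.98 and 5.33 with the combination. The DMSO libraries differed from each other by more than any treated pair, and replicate 2 of DMSO lay close to the treated libraries. The combination gave -0.70 ± 0.33 on the log2 scale (edgeR adjusted p = 0.192), which was -1.08 without replicate 2 of DMSO and -0.23 without its replicate 1. Exons of PHLDA1 overlap 553 bases of PHLDA1-AS1 and those of DUSP6 overlap 1105 bases of another transcript, both on the opposite strand, and no setting for strand is given for the counting.

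**Figure D3:**
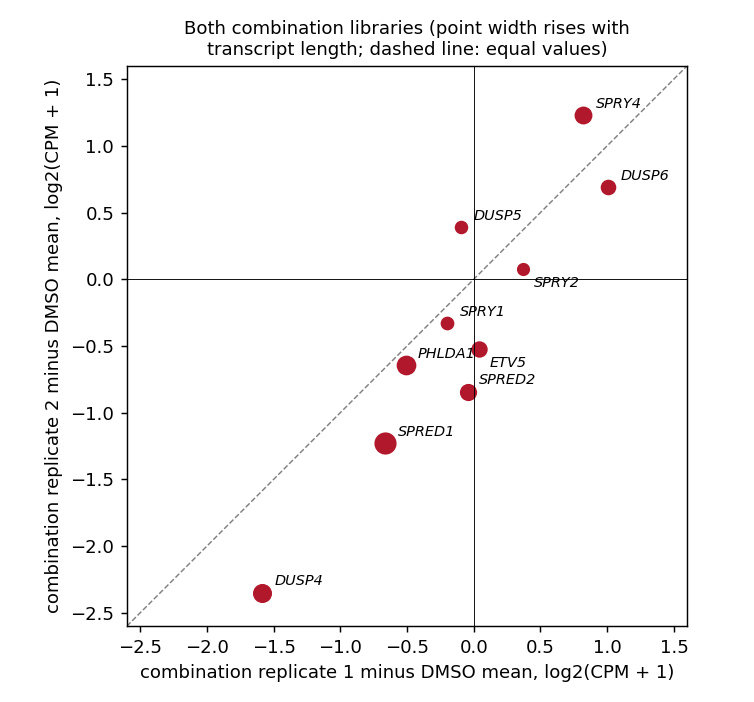
Difference of each combination library from the DMSO mean on the log2(CPM + 1) scale, replicate 1 on the horizontal and replicate 2 on the vertical axis, with point width rising with transcript length and a dashed line of equal values. DUSP4 (-1.59 and -2.35), SPRY4 (0.82 and 1.23) and DUSP6 (1.01 and 0.69) keep their side of 0 in both libraries, whereas SPRED2 (-0.04 and -0.84) and ETV5 (0.04 and -0.53) are low in replicate 2 only.

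None of the 10 genes passed the edgeR threshold with VTP50469 alone (0.169% of all tested genes did) or WM1119 alone (0%). At an unadjusted p under 0.05 in edgeR there were 2 with VTP50469 (SPRY4 higher, DUSP4 lower; 6.75% of all tested genes) and 2 with WM1119 (SPRY4 higher, SPRY1 lower; 4.94%), and DESeq2 passed none in either comparison (1.54% and 0.620% of the genes it tested). None passed in edgeR between the combination and VTP50469 (0.395%) or WM1119 (1.43%), where 3 and 4 genes had an unadjusted p under 0.05 (17.9% and 16.7%). DESeq2 passed DUSP4 in the first and DUSP4, DUSP6 and SPRED1 in the second, beside 5.30% and 5.53% of genes. The interaction passed none in edgeR (0%), none at an unadjusted p under 0.05 (2.20%) and none in DESeq2 (0.0305%). The comparisons with DMSO share the same 2 control libraries, so their values are not independent.

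**Figure D4:**
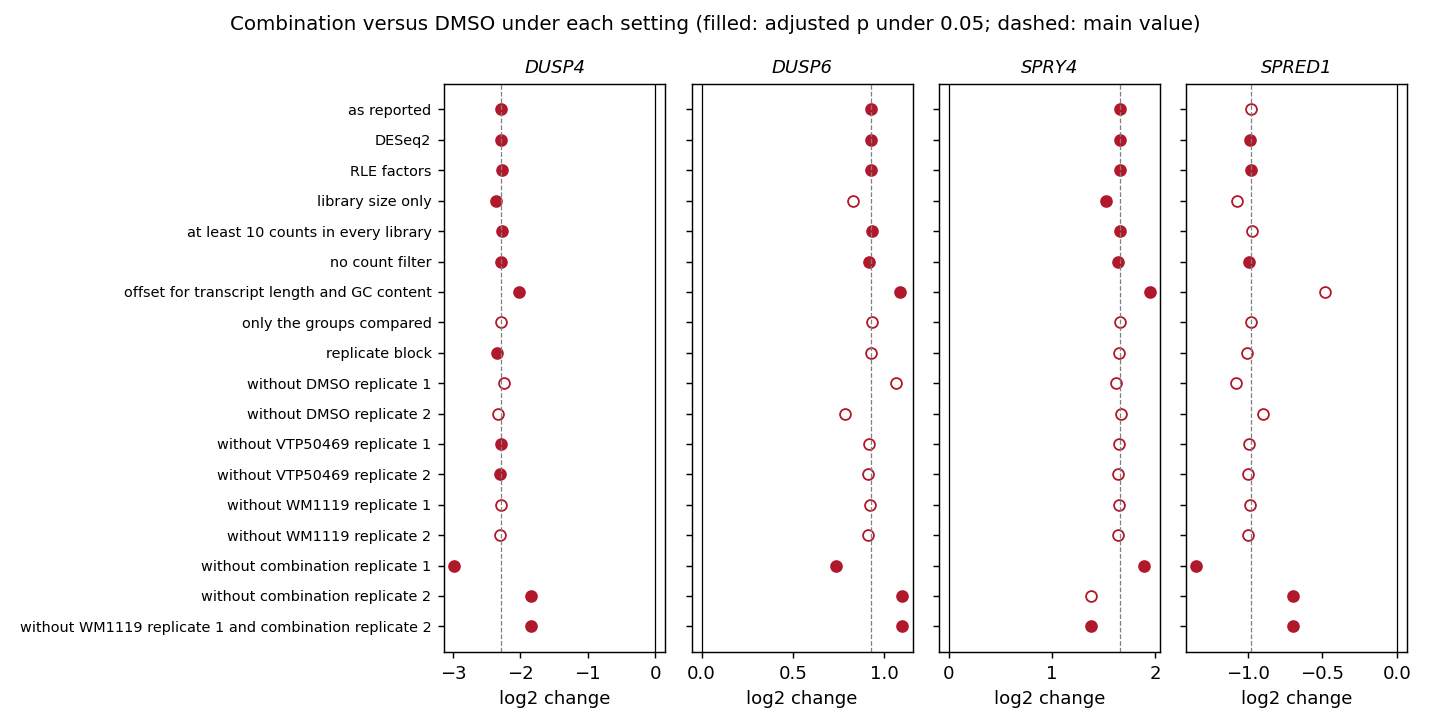
Log2 change of DUSP4, DUSP6, SPRY4 and SPRED1 between the combination and DMSO (horizontal axis) under each processing alternative and with each library left out (rows), filled where the adjusted p is under 0.05, with a dashed line at the reported value. All points of a gene lie on 1 side of 0, DUSP4 ranging from -2.98 to -1.84, while the threshold was passed in part of the settings only.

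The other genes of the pathway were read from 5 lists of 82 genes, of which 71 could be tested. In the combination against DMSO 11 passed the edgeR threshold, 5 higher and 6 lower (22 in DESeq2, 11 in each direction), beside 9.29% of all tested genes in edgeR (5.85% higher, 3.44% lower) and 17.7% in DESeq2. The count was 30 with the offset for length and GC content, and it also changed on leaving out 1 library. The share of all tested genes passing in those fits is not given here, so these counts are not a result about the lists. Among 14 receptors upstream of RAS, of which 10 were tested, 3 rose and 2 fell. CSF1R, the receptor of macrophage colony-stimulating factor, stood at 4.33 and 4.65 CPM in DMSO and 28.3 and 27.8 in the combination (log2 change 2.64 ± 0.16, edgeR adjusted p = 0.00156). CSF3R, the receptor of granulocyte colony-stimulating factor, rose by 2.39 ± 0.20 (adjusted p = 0.00224) and CSF2RA, a chain of the GM-CSF receptor, by 0.84 ± 0.13 (adjusted p = 0.0154). FGFR1 fell by 1.13 ± 0.23 (adjusted p = 0.0291) and FLT3, the receptor tyrosine kinase of early progenitors, by 1.10 ± 0.25 (adjusted p = 0.0447), with the fifth lowest p of the list. The list median was 0.43, beside 0.01 for all tested genes.

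Of 17 adaptors, RAS genes and RAS regulators, 16 were tested and none passed in edgeR (5 at an unadjusted p under 0.05, beside 30.3% of all tested genes, and 2 in DESeq2), with a list median of -0.25. The lowest p values were those of RASA1, a RAS GTPase-activating protein (-1.34 ± 0.35, edgeR adjusted p = 0.0592), RASGRP2, a guanine nucleotide exchange factor (0.79 ± 0.21, adjusted p = 0.0602), GAB2 (-0.52 ± 0.17, adjusted p = 0.108) and LZTR1 (-0.36 ± 0.14, adjusted p = 0.138). All 16 genes of RAF, MEK, ERK and their scaffolds were tested, with a median of -0.11. MAPK3, which encodes ERK1, was the only one to pass, rising by 0.93 ± 0.17 (adjusted p = 0.0210) from 19.4 and 21.7 CPM to 34.6 and 43.8. RPS6KA2 (-1.47 ± 0.40, edgeR adjusted p = 0.0667), PEA15 (-0.43 ± 0.13, adjusted p = 0.0807) and ARAF (0.57 ± 0.18, adjusted p = 0.0948) followed without passing.

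Of 13 other dual-specificity phosphatases and feedback genes, 10 were tested, 1 rose and 1 fell, with a median of -0.29. IER3, an immediate early gene, stood at 2.43 and 2.89 CPM in DMSO and 9.11 and 13.8 in the combination (2.10 ± 0.33, edgeR adjusted p = 0.0147). DUSP7, a cytoplasmic ERK phosphatase related to DUSP6, fell by 0.86 ± 0.20 (adjusted p = 0.0446), from 92.8 and 90.6 CPM to 59.9 and 40.8. DUSP10, a phosphatase of JNK and p38 (0.72 ± 0.19, edgeR adjusted p = 0.0632), and PHLDA2 (-0.93 ± 0.42, adjusted p = 0.182) did not pass.

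Of 22 transcription factors and other genes responsive to ERK, 19 were tested, none rose and 3 fell, with a median of -0.18. CCND1, which encodes cyclin D1, stood at 30.6 and 30.6 CPM in DMSO, 25.4 and 24.2 with VTP50469, 16.1 and 13.9 with WM1119, and 5.93 and 6.82 with the combination, a log2 change of -2.27 ± 0.16 (edgeR adjusted p = 0.00181). MYC fell by 0.70 ± 0.15 (adjusted p = 0.0379) and SRF, a partner of the ternary complex factors, by 0.51 ± 0.12 (adjusted p = 0.0463). JUN (0.78 ± 0.22, edgeR adjusted p = 0.0736) did not pass. Genes passed in both directions among the receptors and among the other phosphatases and feedback genes, as they did among the 10 genes described first. Of all tested genes, 5.85% passed higher and 3.44% lower. With 10 genes tested in each of these sets, counts this small are not a result about any of them.

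**Figure D5:**
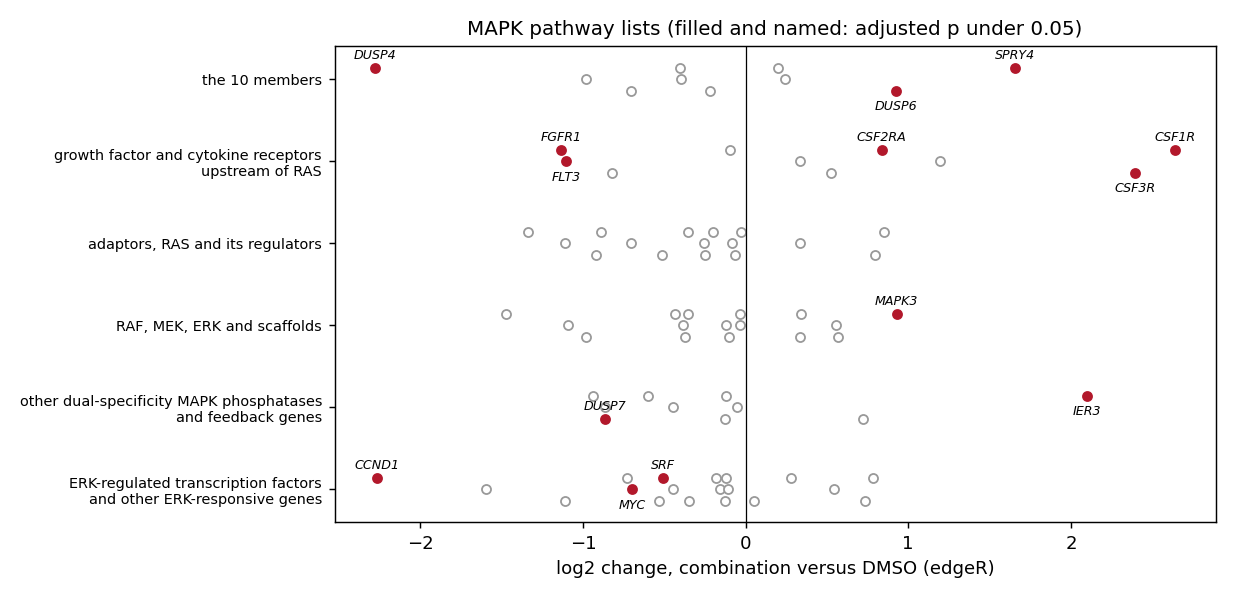
Log2 change between the combination and DMSO (horizontal axis, edgeR) of every tested gene in the 10 feedback genes and 5 pathway lists (rows), filled and named where the adjusted p is under 0.05. Filled points lie on both sides of 0, from -2.28 (DUSP4) and -2.27 (CCND1) to 2.64 (CSF1R).

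For 3 of the feedback genes, those with the highest mean CPM over the 8 libraries among the 3 phosphatases (DUSP6), the Sprouty and SPRED genes together (SPRED2), and ETV5 and PHLDA1 (ETV5), the genes most alike in pattern across the 8 libraries were sought by the root mean square difference of centered log2(CPM + 1) values. The nearest to DUSP6 were TARP (0.110), MCU (0.112), the mitochondrial calcium uniporter, and RNF145 (0.115), beside 0.374 for the spread of DUSP6 about its own mean. TARP was below 1 CPM in every library, so its likeness rests on few reads. MCU stood at 30.9 and 28.4 CPM in DMSO and 55.4 and 54.1 in the combination. SPRED2 was nearest to GUF1 (0.0452), FAM91A1 (0.0474) and ZBTB44 (0.0479), and ETV5 to BTRC (0.0360), YWHAZ (0.0417) and AZIN1 (0.0421). All 6 of these were lowest in replicate 2 of the combination. Without that library the 3 nearest genes were replaced for DUSP6 and SPRED2, and 1 of 3 was shared for ETV5.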

How the data were processed

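MOLM-13 RNA was sequenced as 150 bp read pairs, which the authors aligned to hg38 with STAR 2.5.1b; their processing notes also name DESeq2. The values deposited by the authors are expected counts, made from the aligned reads and summed for each gene symbol with no normalization. No source used here names the counting tool, its strand setting or its annotation, and media and kits are left out because paper and labels differ on them.

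Rounded counts entered edgeR 4.0.16 (R 4.3.3) as 1 fit of the 4 groups, with TMM scaling, its expression filter (12401 of 26475 genes kept) and the quasi-likelihood F test. The fit had 4 residual degrees of freedom, a prior of 2.88 and a common dispersion of 0.0457. A gene passes at a Benjamini-Hochberg adjusted p under 0.05 over all tested genes, and no p was adjusted over the 10 genes alone. CPM values use TMM factors, and log2 changes are the first group named minus the second. The interaction is the combination minus both inhibitors plus DMSO. Canonical GENCODE 44 transcripts gave length and GC content for 92.1% of tested genes, and the offset is a loess fit (span 0.4) per library. Promoter windows are from RefSeq. The tests were tried on simulated counts with the same dispersion for every gene and no trend with transcript length in any library. Of 100 genes changed by a log2 of 1, edgeR recovered 23 and DESeq2 29, and of 100 changed by 2, they recovered 94 and 92. False calls made up 4.10% (edgeR) and 6.20% (DESeq2) of those passing, shares that may not hold for the sequenced libraries. A gene that does not pass is therefore not shown to be unchanged.

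The alternatives were DESeq2 1.42.0 (16403 genes with any count), RLE factors, scaling by library size alone, both a looser and a stricter count filter (none, or 10 in each library), the length and GC offset, a fit of the compared groups alone, a replicate block, and omission of each library. Omitting replicate 1 of WM1119 together with replicate 2 of the combination, and the comparison of the inhibitors with each other, were added after seeing the data. The text names the 10 feedback genes and the 4 lowest p values of each pathway list with the combination. It also names the 3 genes most alike to the feedback gene with the highest mean CPM in each of 3 sets. These sets are the phosphatases, the Sprouty and SPRED genes together, and ETV5 with PHLDA1. FLT3 and the markers CD3E, CD3G, NKG7, CD3D and CD2 were named after their values were seen. The 10 genes and all lists were chosen with earlier results of these data known.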

Additional observations from a re-analysis of the deposited data

How the results depend on the processing

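Every comparison was refitted with 8 other settings (7 for the interaction) and without each library in turn. With 2 libraries per group, a group left with 1 library is assumed to vary like the others. In the combination against DMSO, 3 of the 10 genes passed as reported, and 4 with DESeq2, with RLE factors and with no count filter. The count was 2 with library size only, and 3 with at least 10 counts in every library and with the length and GC offset. It was 0 in a fit of the 2 groups compared alone, where fewer libraries estimate the spread, and why it fell was not tested. Which genes passed also changed on leaving out 1 library. Over the 5 pathway lists, 11 genes passed as reported, 22 with DESeq2, 30 with the offset, 0 with only the groups compared, 8 with library size only, and 3 to 49 on leaving out 1 library. VTP50469 against DMSO gave 0 genes as reported and 1 with only the groups compared. The combination against VTP50469 gave 0 as reported, 1 with DESeq2 and 1 with the offset. Against WM1119 it gave 0 as reported, 3 with DESeq2 and 2 with the offset. The counts of these comparisons and of the interaction changed on leaving out 1 library. In each comparison of the combination, and for the interaction, the most of the 10 genes passed without replicate 1 of the combination. That fit also passed the most of all tested genes, so these counts are not a result about the 10 genes. Leaving out replicate 1 of WM1119 and replicate 2 of the combination together also changed several of the counts. Counts over all tested genes for the combination against DMSO ran from 69 (without replicate 1 of DMSO) to 7756 (without replicate 1 of the combination). For VTP50469 against WM1119, 0 of the 10 genes passed as reported and 1 with DESeq2. With a pseudocount of 0.5 in place of 1, the nearest genes shared were 2 of 3 for DUSP6 and 3 of 3 for SPRED2 and ETV5.

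Replicates with equal numbers in different groups were not treated as pairs: correlations of same-numbered deviations ran from -0.661 to 0.350 over the 6 pairs of groups. With the replicate block 1 of the 10 genes (DUSP4, -2.34, adjusted p = 0.0277) and 6 pathway genes passed in the combination against DMSO.

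Only small changes that had not passed reversed. With the offset these were SPRED1 with WM1119 (0.048), DUSP5 in the combination against DMSO (-0.034) and VTP50469 (-0.10), PHLDA1 in the combination against VTP50469 (0.12) and WM1119 (0.29), and ETV5 in the combination against WM1119 (0.14); with library size only it was DUSP5 in the combination against VTP50469 (-0.044). The others reversed on leaving out libraries, with these ranges of log2 change, the pair left out together included. For VTP50469 against DMSO they were DUSP5 -0.10 to 0.30, SPRED2 -0.050 to 0.11, ETV5 -0.039 to 0.059 and PHLDA1 -0.79 to 0.060. For WM1119 against DMSO they were DUSP5 -0.48 to 0.056, DUSP6 -0.19 to 0.081 and SPRED2 -0.30 to 0.10. For the combination against DMSO they were DUSP5 -0.11 to 0.46 and ETV5 -0.55 to 0.053. For the combination against VTP50469 they were DUSP5 -0.24 to 0.34, SPRY2 -0.24 to 0.13 and ETV5 -0.57 to 0.030. For the combination against WM1119 they were SPRED2 -0.81 to 0.061, ETV5 -0.36 to 0.25 and PHLDA1 -0.21 to 0.074. For VTP50469 against WM1119 they were DUSP4 -0.58 to 0.071, SPRY4 -0.040 to 0.37, SPRED2 -0.063 to 0.33 and PHLDA1 -0.057 to 0.43. The cause of these changes was not tested. With 17 to 57 counts per library for SPRY4, depth limits what can be said of that gene.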
